A study of Mus musculus with 7 samples.

Results

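The 36 nuclear receptor genes described here are the members of this transcription factor superfamily in the mouse liver data, chosen by gene symbol and without the clock receptors and *Hnf4a*. They are 36 of the 23347 genes in the table. Nuclear receptors are transcription factors that bind DNA and change the activity of their target genes, in most cases when a lipid-soluble ligand fills their binding pocket. Many of those that control metabolism, including the PPARs, LXRs, FXR, CAR and PXR, act as heterodimers with a retinoid X receptor (RXR). In the liver they govern fatty acid oxidation and storage, cholesterol and bile acid turnover and the breakdown of foreign compounds.

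The data are liver transcript counts of 7 mice, each with its own library, of which 4 carry *B4galt1* flox/flox and 3 are labelled *B4galt1* hep-/-. All were males on a C57BL/6 background, 6 to 8 weeks old when the diet began, and all had been fed the CDAHFD, a high-fat diet without choline, with amino acids in place of protein, that causes steatohepatitis, for 15 weeks. The flox/flox mice, which the sample labels call WT, were littermates without Cre. In hep-/- mice, Cre expressed from the albumin promoter (*Alb-Cre*) removes *B4galt1* from hepatocytes and leaves it in the other cells of the liver, and bulk RNA holds all of those cells. Libraries of chow-fed mice were not analysed here.

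*B4galt1* (NCBI gene 14595), which encodes a galactosyltransferase that adds galactose to glycans, checks these labels. It was at 48.7, 53.0, 49.2 and 51.6 CPM (the count scaled to library size with edgeR's TMM factors) in flox/flox replicates 1 to 4 and at 28.4, 23.9 and 53.7 CPM in replicates 1 to 3 labelled hep-/-. Replicate 3 labelled hep-/- was therefore above every flox/flox mouse, and the log2 fold change of -0.52 (standard error 0.26) had an adjusted p of 0.181 (edgeR quasi-likelihood test, adjusted over all tested genes by Benjamini and Hochberg). Because the targeted transcript in that library goes against its label, the group is called labelled hep-/- throughout, and results are also given without that mouse. On the first principal component of all tested genes, the axis of largest variation (47.8% of the variance), that library lay at 28.6. Replicates 1 and 2 labelled hep-/- lay at 36.1 and 86.4, and the flox/flox mice at -58.6 to -14.5. Whether its label is right was not tested. Total counts were 37838654 to 39668509 in flox/flox libraries and 30608271 to 34586588 in those labelled hep-/-, so that 3 counts corresponded to 0.0690 to 0.0987 CPM. Mitochondrially encoded transcripts took 5.79% ± 1.70 (SD, n = 4) and 19.7% ± 4.58 (SD, n = 3) of the counts in these groups (p = 0.0286 in an exact permutation test, two-sided, which is the smallest p that 4 against 3 mice allow). With these transcripts left out of the edgeR test, the receptors called below (*Rxra*, *Pparg*, *Nr3c2* and *Nr1i2*) were the same. Log2 fold changes then shifted by a median of 0.0024, and 2418 genes were called in place of 2404. Any other part of these transcripts in the differences below was not tested. Hepatocyte markers, summed to 99401 to 140381 CPM in flox/flox and 103223 to 165258 CPM in livers labelled hep-/-, showed the labelled tissue in every library.

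Among the 35 receptor genes with enough counts to be tested, *Rxra*, *Pparg* and *Nr3c2* were lower and *Nr1i2* was higher in livers labelled hep-/-. Calls here and below require both an edgeR adjusted p below 0.05 and a log2 fold change beyond 0.58 in either direction. The 4 calls are 11.4% of the receptors tested, against 15.8% of all 15179 genes tested. Lower calls made up 8.57% of the receptors and 7.83% of all genes, and higher calls 2.86% and 8.0%. The other 31 receptors did not pass. Over all 35, the log2 fold changes, labelled hep-/- over flox/flox, were negative for 16 and positive for 19, with a median of 0.22 beside 0.02 over all genes. Every CPM of the group labelled hep-/- lay below every flox/flox CPM for 3 receptors, as for 15.0% of all genes, and above for 2 (*Nr1i2* and *Nr1h5*), as for 13.6% of all genes. In total 14.3% of the receptors and 28.6% of all genes had groups that did not overlap. When replicate 3 labelled hep-/- was left out, 1 receptor (*Rxra*) was called lower and 1 (*Nr1i2*) higher, while 13.8% of all genes were called.

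**Figure D1:**
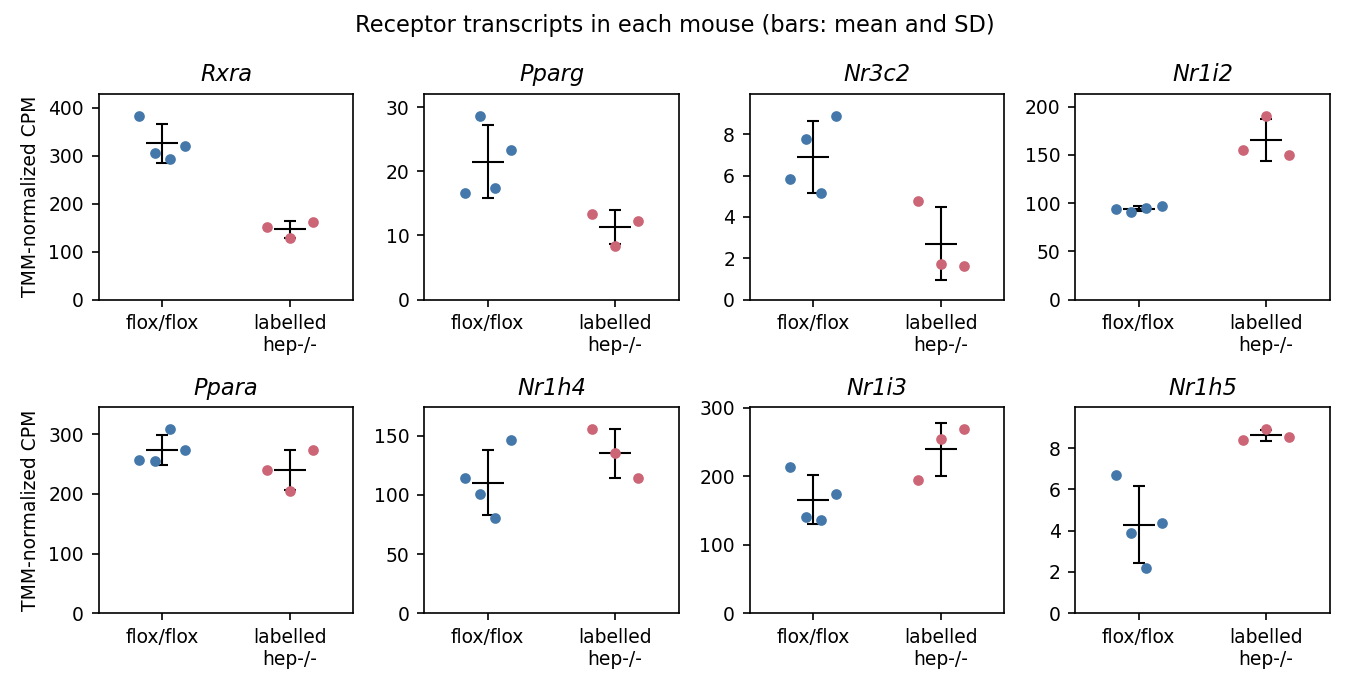
TMM-normalized CPM (linear axes from 0) of 8 receptor genes in each mouse, flox/flox in blue (n = 4) and labelled hep-/- in red (n = 3), with the mean and SD as bars. The groups are apart for Rxra, Pparg, Nr3c2, Nr1i2 and Nr1h5 and overlap for Ppara, Nr1h4 and Nr1i3.

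The retinoid X receptors are the shared partners of the metabolic receptors, and *Rxra* encodes the form that prevails in hepatocytes. *Rxra* (NCBI gene 20181) was at 383, 305, 294 and 321 CPM in flox/flox replicates 1 to 4 and at 151, 128 and 162 CPM in replicates 1 to 3 labelled hep-/-. The lowest flox/flox mouse lay well above the highest mouse labelled hep-/-. The means were 326 ± 40.0 (SD, n = 4) and 147 ± 17.6 CPM (SD, n = 3), a fall of 2.22-fold (log2 fold change -1.15, standard error 0.20, 95% interval -1.58 to -0.71, edgeR adjusted p = 0.00605). Without replicate 3 labelled hep-/- the log2 fold change was -1.23, with an edgeR adjusted p of 0.0102. *Rxra* was the 1 receptor called in all 18 alternatives. The other two forms did not pass. *Rxrb*, the form found in most tissues, was at 31.6, 23.8, 29.9 and 24.4 CPM in flox/flox replicates 1 to 4 and 28.1, 35.5 and 32.2 CPM in those labelled hep-/-, and the 95% interval of its log2 fold change ran from -0.18 to 0.62. *Rxrg*, best known from muscle and brain, ranged from 1.99 to 3.79 CPM in flox/flox mice and from 2.07 to 3.57 CPM in mice labelled hep-/-.

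The PPARs are the fatty acid receptors of the superfamily. PPARγ drives lipid storage in adipocytes and is induced in fatty livers, PPARα switches on fatty acid oxidation in hepatocytes, and PPARδ is found in most tissues. *Pparg* (NCBI gene 19016) was at 16.6, 28.7, 17.4 and 23.3 CPM in flox/flox replicates 1 to 4 and at 13.3, 8.41 and 12.2 CPM in replicates 1 to 3 labelled hep-/-. The groups did not overlap, with replicate 2 labelled hep-/- lowest and flox/flox replicate 2 highest. The means of 21.5 ± 5.67 (SD, n = 4) and 11.3 ± 2.59 CPM (SD, n = 3) gave a log2 fold change of -0.92 (standard error 0.25, 95% interval -1.47 to -0.37, edgeR adjusted p = 0.0311). This call was lost when any 1 of 4 mice was left out. The edgeR adjusted p was 0.0997, 0.0677, 0.0962 and 0.0557 without flox/flox replicate 2, flox/flox replicate 4, replicate 2 labelled hep-/- and replicate 3 labelled hep-/-, at log2 fold changes of -0.75, -0.88, -0.75 and -0.99.

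*Pparg* is also a gene of macrophages and adipocytes. Of the 13 macrophage and Kupffer cell markers tested, 7 fell (53.8%, beside 7.83% of all genes) and 0 rose, with a median log2 fold change of -1.09. None of them was at 0 in any group, and their summed level was 1587 to 3607 CPM in flox/flox and 768 to 849 CPM in livers labelled hep-/- (p = 0.0571 by a two-sided exact permutation test). When replicate 3 labelled hep-/- was left out, 4 fell (30.8%, beside 7.51% of all genes) and 0 rose. The part of these cells in the *Pparg* difference was not tested, and in bulk RNA fewer cells of a type and less RNA per cell cannot be told apart. The 4 adipocyte markers in the table were close to 0 in both groups, with summed levels of 0.0230 to 0.198 CPM and 0.0649 to 0.181 CPM, with *Adipoq* at 0 in every mouse labelled hep-/- and *Retn* at 0 in every flox/flox mouse.

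*Ppara* (NCBI gene 19013) was at 257, 255, 309 and 274 CPM in flox/flox replicates 1 to 4 and at 239.6, 206 and 273 CPM in replicates 1 to 3 labelled hep-/-. Its groups overlapped, and its log2 fold change of -0.19 (95% interval -0.61 to 0.23) had an edgeR adjusted p of 0.515, so that a fall of the size seen for *Rxra* lies outside the interval. *Ppard* was at 12.5, 7.86, 8.04 and 6.87 CPM in flox/flox and 9.77, 14.1 and 9.97 CPM in livers labelled hep-/-, also with overlap (log2 fold change 0.35, 95% interval -0.21 to 0.91). FPKM, which divides each count by gene length and library total, allows levels to be compared between receptors. *Pparg* made up 16.5 to 28.1% of the summed PPAR FPKM in flox/flox libraries and 11.3 to 15.8% in those labelled hep-/-, without overlap. Most of the remainder was *Ppara*, at 65.5 to 77.1% and 72.8 to 77.7%.

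RefSeq's table of promoters held 33 of the 36 receptors, in 52 windows of the 250 bases upstream of an annotated start (build GRCm38.p6, which is not the GRCm39 of the counts), and it lacked *Thra*, *Nr3c1* and *Hnf4g*. The windows of the 4 called receptors, *Rxra*, *Pparg* and *Nr3c2*, which fell, and *Nr1i2*, which rose, are printed 5′ to 3′ on the gene's strand to show where the half-site of RXR and its partners stands in them. Capitals mark AGGTCA, or TGACCT where it lies on the opposite strand.
Rxra, chr2:27676951-27677200, plus strand: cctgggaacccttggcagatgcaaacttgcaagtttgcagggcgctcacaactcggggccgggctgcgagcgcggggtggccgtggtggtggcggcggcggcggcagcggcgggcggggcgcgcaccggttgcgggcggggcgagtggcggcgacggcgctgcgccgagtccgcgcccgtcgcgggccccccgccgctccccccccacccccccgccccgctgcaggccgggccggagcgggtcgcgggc
Rxra, chr2:27709042-27709291, plus strand: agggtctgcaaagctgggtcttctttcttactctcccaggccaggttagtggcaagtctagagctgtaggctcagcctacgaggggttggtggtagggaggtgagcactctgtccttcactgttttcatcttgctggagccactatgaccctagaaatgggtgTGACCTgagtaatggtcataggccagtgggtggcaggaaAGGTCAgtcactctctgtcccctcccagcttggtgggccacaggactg
Pparg, chr6:115360894-115361143, plus strand: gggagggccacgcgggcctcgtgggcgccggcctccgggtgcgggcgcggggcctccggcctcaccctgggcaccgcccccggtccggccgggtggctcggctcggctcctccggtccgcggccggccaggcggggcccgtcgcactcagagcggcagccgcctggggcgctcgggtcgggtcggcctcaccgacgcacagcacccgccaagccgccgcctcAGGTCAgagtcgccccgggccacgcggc
Pparg, chr6:115362099-115362348, plus strand: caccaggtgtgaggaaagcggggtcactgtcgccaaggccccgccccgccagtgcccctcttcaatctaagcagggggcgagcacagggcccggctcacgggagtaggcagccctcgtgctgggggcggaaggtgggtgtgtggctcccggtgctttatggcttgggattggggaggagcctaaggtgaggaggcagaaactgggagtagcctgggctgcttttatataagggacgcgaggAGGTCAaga
Nr3c2, chr8:76902080-76902329, plus strand: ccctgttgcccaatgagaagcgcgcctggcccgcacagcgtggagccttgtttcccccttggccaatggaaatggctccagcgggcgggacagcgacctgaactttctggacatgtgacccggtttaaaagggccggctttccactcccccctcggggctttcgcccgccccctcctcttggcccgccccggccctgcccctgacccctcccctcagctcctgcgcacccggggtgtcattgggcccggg
Nr1i2, chr16:38294825-38295074, minus strand: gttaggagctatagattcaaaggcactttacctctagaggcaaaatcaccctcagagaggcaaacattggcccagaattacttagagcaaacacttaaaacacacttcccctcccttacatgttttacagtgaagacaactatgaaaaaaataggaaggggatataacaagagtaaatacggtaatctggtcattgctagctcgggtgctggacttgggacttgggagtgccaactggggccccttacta
The window of the second *Rxra* start holds 2 half-sites, 87 and 48 bases upstream, and the first holds none in a stretch of 81.2% G and C. Both of the *Pparg* windows shown hold 1, at 28 and 9 bases upstream, and a further *Pparg* window at the third start, not printed, holds none. The *Nr3c2* window (68.4% G and C) and the *Nr1i2* window (44.0% G and C) hold none. Over all 32841 windows of the table, 14.0% hold the half-site on either strand, beside 9 of the 52 receptor windows (17.3%). Paired half-sites in the same direction with 1 base between them (DR1, the arrangement that PPAR and RXR bind as a pair) occur in 11 of all windows and in 0 of the receptors'. These matches describe the letters of the windows and are not shown to be bound.

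The xenobiotic receptors PXR (*Nr1i2*) and CAR (*Nr1i3*) sense drugs, toxins and bile acids and induce the enzymes that clear them. *Nr1i2* (NCBI gene 18171) was at 94.4, 90.6, 94.9 and 97.5 CPM in flox/flox replicates 1 to 4 and at 155, 191 and 150.5 CPM in replicates 1 to 3 labelled hep-/-. The flox/flox mice were closely grouped, with a coefficient of variation of 3.02%, and all 3 mice labelled hep-/- were above them. The means were 94.4 ± 2.85 (SD, n = 4) and 165 ± 22.1 CPM (SD, n = 3), a rise of 1.75-fold (log2 fold change 0.81, standard error 0.18, 95% interval 0.43 to 1.19, edgeR adjusted p = 0.0132). Without replicate 3 labelled hep-/- the log2 fold change was 0.86 and the edgeR adjusted p 0.0174, and without flox/flox replicate 2 they were 0.79 and 0.0557. *Nr1i3* (NCBI gene 12355) was at 214, 139.9, 136 and 174 CPM in flox/flox replicates 1 to 4 and at 195, 254 and 269 CPM in replicates 1 to 3 labelled hep-/-. Flox/flox replicate 1 exceeded replicate 1 labelled hep-/-, and the log2 fold change of 0.53 (95% interval 0.05 to 1.01) had an edgeR adjusted p of 0.117.

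Receptor proportions within a library do not depend on its total count, and they are given as a description without a test. *Rxra* supplied 81.6 to 84.5% of the summed FPKM of the 3 RXR genes in flox/flox libraries and 62.0 to 69.6% in those labelled hep-/-. The FPKM of each of 5 partners relative to *Rxra* was higher in every library labelled hep-/- than in every flox/flox library, for partners that passed the test and for those that did not. The ratio was 0.520 to 0.683 and 1.96 to 3.16 for *Nr1i2*, and 1.13 to 1.38 and 3.19 to 4.92 for *Nr1i3*. It was 0.608 to 1.01 and 1.56 to 2.36 for *Nr1h4*. For *Nr1h3* it was 0.573 to 0.761 and 1.34 to 1.54, and for *Ppara* 0.366 to 0.575 and 0.866 to 0.921. All of these ratios share the *Rxra* values as their denominator.

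**Figure D2:**
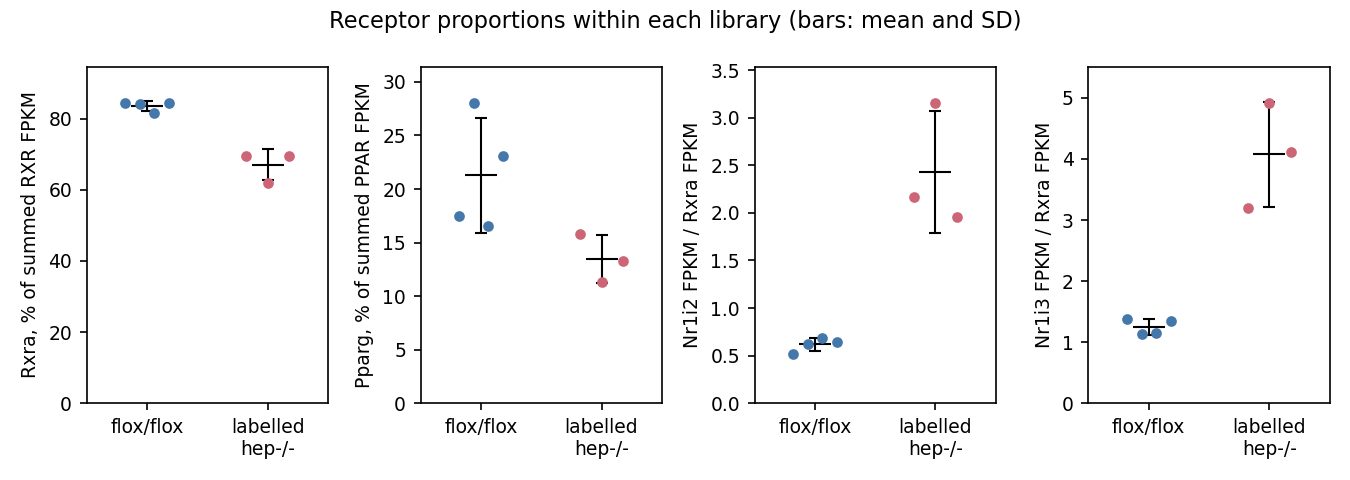
Receptor proportions from FPKM within each library, flox/flox in blue (n = 4) and labelled hep-/- in red (n = 3), with the mean and SD as bars and axes from 0. Rxra's share of the RXR genes lies at 81.6 to 84.5% and 62.0 to 69.6%, and Nr1i2 relative to Rxra at 0.520 to 0.683 and 1.96 to 3.16, each without overlap.

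In flox/flox livers the receptor with the highest level per length was *Nr1i3*, at 75.3 ± 20.9 FPKM (SD, n = 4). It was followed by *Rxra* at 59.7 ± 11.5, *Nr1h4* at 44.3 ± 9.22, *Nr1h3* at 39.4 ± 4.46, *Nr1i2* at 36.3 ± 3.12 and *Ppara* at 27.3 ± 3.51 FPKM. Neighbours in this order down to *Nr1i2* lie within their combined SDs, although *Nr1i3* exceeded *Rxra* in each of the 4 libraries, and the step from *Nr1i2* to *Ppara* was wider than both SDs. In livers labelled hep-/- *Nr1i3* was again first at 99.5 ± 21.5 FPKM (SD, n = 3), *Nr1i2* stood in place 2 at 59.1 ± 15.1 and *Rxra* in place 5 at 24.4 ± 0.507 FPKM. *Pparg* was in place 13 in flox/flox livers (8.05 ± 1.72 FPKM) and place 17 in those labelled hep-/- (3.88 ± 0.538 FPKM). The lowest means in flox/flox livers belonged to *Esrrb* and *Vdr*, the vitamin D receptor, at 0.0544 and 0.0352 FPKM.

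The sterol and bile acid receptors were not called. FXR (*Nr1h4*, NCBI gene 20186), the bile acid receptor, was at 114, 101, 80.4 and 146 CPM in flox/flox replicates 1 to 4 and at 156, 135 and 114 CPM in replicates 1 to 3 labelled hep-/-. The groups overlapped, and the log2 fold change of 0.29 (95% interval -0.20 to 0.78) had an edgeR adjusted p of 0.397. The oxysterol receptors LXRα (*Nr1h3*) and LXRβ (*Nr1h2*) gave log2 fold changes of -0.02 and 0.28, and *Nr1h3* had one of the narrowest intervals of all receptors, from -0.40 to 0.35. *Nr1h5*, a second FXR gene that is a pseudogene in humans, was at 6.71, 3.86, 2.20 and 4.38 CPM in flox/flox and 8.38, 8.93 and 8.55 CPM in livers labelled hep-/-. Its groups did not overlap, but its log2 fold change of 1.01 (standard error 0.33) had an edgeR adjusted p of 0.0573 and was not called. It was called higher with DESeq2 (adjusted p = 0.0183), and with edgeR without flox/flox replicate 1 (log2 fold change 1.31, adjusted p = 0.0200).

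SHP (*Nr0b2*), a receptor without a DNA-binding domain that FXR induces and that represses bile acid synthesis, was among the most variable, at 18.3, 4.14, 28.4 and 19.1 CPM in flox/flox and 17.6, 44.2 and 9.60 CPM in livers labelled hep-/-. Replicate 2 held the lowest flox/flox value and the highest value labelled hep-/-, and the sign of its log2 fold change (0.45) turned to -0.36 without replicate 2 labelled hep-/-. LRH-1 (*Nr5a2*), which activates bile acid synthesis genes, was at 34.8, 55.3, 49.1 and 42.6 CPM in flox/flox and 27.3, 30.2 and 36.3 CPM in livers labelled hep-/-. The groups overlapped narrowly, between flox/flox replicate 1 and replicate 3 labelled hep-/-, and the edgeR adjusted p was 0.0902 at a log2 fold change of -0.54. *Nr5a2* was called lower by limma on log2(FPKM + 0.1) and by voom with sample weights, with adjusted p of 0.0387 and 0.0300.

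The steroid and oestrogen-related receptors held 1 call. *Nr3c2* (NCBI gene 110784), the mineralocorticoid receptor, was at 5.82, 7.75, 5.15 and 8.90 CPM in flox/flox replicates 1 to 4 and at 4.77, 1.72 and 1.64 CPM in replicates 1 to 3 labelled hep-/-. Replicates 2 and 3 labelled hep-/- were far below the rest, while replicate 1 labelled hep-/- was just under the lowest flox/flox mouse. The means of 6.91 ± 1.73 (SD, n = 4) and 2.71 ± 1.78 CPM (SD, n = 3) gave a log2 fold change of -1.35 (standard error 0.40, 95% interval -2.23 to -0.47, edgeR adjusted p = 0.0433). This was the least stable of the calls, lost in 8 of 16 alternatives. With edgeR, leaving out flox/flox replicates 2, 3 and 4 in turn gave adjusted p of 0.110, 0.0544 and 0.0985, and leaving out replicates 2 and 3 labelled hep-/- gave 0.120 and 0.111, both at a log2 fold change of -1.10. Without replicate 1 labelled hep-/- the log2 fold change was -2.05.

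The glucocorticoid receptor (*Nr3c1*), which cortisol-like hormones activate, ranged from 39.3 to 64.2 CPM in flox/flox mice and from 29.6 to 44.5 CPM in mice labelled hep-/- (log2 fold change -0.41, 95% interval -0.88 to 0.06). The oestrogen receptor *Esr1* ranged from 15.5 to 20.4 CPM in flox/flox mice and from 18.4 to 24.9 CPM in mice labelled hep-/-, and the oestrogen-related receptor *Esrra*, a regulator of mitochondrial genes, from 28.3 to 45.9 CPM in flox/flox mice and from 44.0 to 49.2 CPM in mice labelled hep-/-. *Esrrg* had 1 flox/flox mouse apart, replicate 3 at 2.48 CPM against 0.954 to 1.10 CPM in the others. Among all members *Esrrb* alone was not tested for want of counts, with 3, 1, 38 and 2 counts in flox/flox replicates 1 to 4 and 11, 2 and 8 in those labelled hep-/-.

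The receptors for thyroid hormone, retinoic acid and vitamin D were not called, and their log2 fold changes ran from -0.13 for *Thra* to 1.02 for *Vdr*. Replicate 2 labelled hep-/- stood above the other mice of its group for 3 of them. It had 23.9 CPM of *Rarg* against 8.21 and 8.88, 23.3 CPM of *Thra* against 11.2 and 10.1, and 25.2 CPM of *Rara* against 16.0 and 17.6. The summed CPM of the cholangiocyte markers, 918 in this mouse against 434 and 277 in the others labelled hep-/- and 268 to 677 in flox/flox, was highest in it too, and the part of these cells was not tested. Without this mouse the log2 fold change of *Rarg* was -0.38 in place of 0.30. *Thra* overlaps the clock receptor gene *Nr1d1* on the opposite strand, and reads of the shared stretch cannot be assigned if the counting did not use strand, which is not given in the sources used here. *Thrb*, the main thyroid hormone receptor of hepatocytes, ranged from 14.9 to 20.3 CPM in flox/flox mice and from 19.0 to 25.9 CPM in mice labelled hep-/-, and *Rarb* from 4.59 to 6.82 CPM in flox/flox mice and from 4.90 to 6.94 CPM in mice labelled hep-/-. *Vdr* was low throughout, at 0.0460 to 0.276 and 0.0649 to 0.428 CPM.

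The NR4A receptors are immediate early genes that respond within a short time to stress and hormones, and they had some of the widest spreads. *Nr4a1* was at 13.5, 25.3, 6.11 and 71.3 CPM in flox/flox replicates 1 to 4 and 13.5, 10.6 and 25.7 CPM in those labelled hep-/-. Flox/flox replicate 4 alone set its negative log2 fold change of -0.81, which was 0.15 without that mouse. In *Nr4a2* replicate 1 labelled hep-/- was highest at 2.95 CPM, and without it the log2 fold change of 0.69 became -0.37. *Nr4a3* ranged from 0.565 to 1.86 CPM in flox/flox mice and from 0.552 to 1.39 CPM in mice labelled hep-/-.

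None of the 7 orphan receptors of the NR2 and NR6 groups and *Hnf4g* passed. Their log2 fold changes lay between -0.23 for *Nr2c1* and 0.70 for *Nr6a1*. *Nr2f6* and *Nr2f2*, the most abundant of them per length at 14.0 ± 2.32 and 5.04 ± 0.375 FPKM (SD, n = 4) in flox/flox livers, gave intervals of -0.63 to 0.21 and -0.59 to 0.17, and *Nr2c2* one of -0.47 to 0.32. *Nr6a1* ranged from 2.74 to 6.28 CPM in flox/flox mice and from 5.00 to 7.96 CPM in mice labelled hep-/-, with an edgeR adjusted p of 0.169. *Nr2f1* and *Hnf4g* were at most 1.33 and 1.03 CPM in every mouse.

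**Figure D3:**
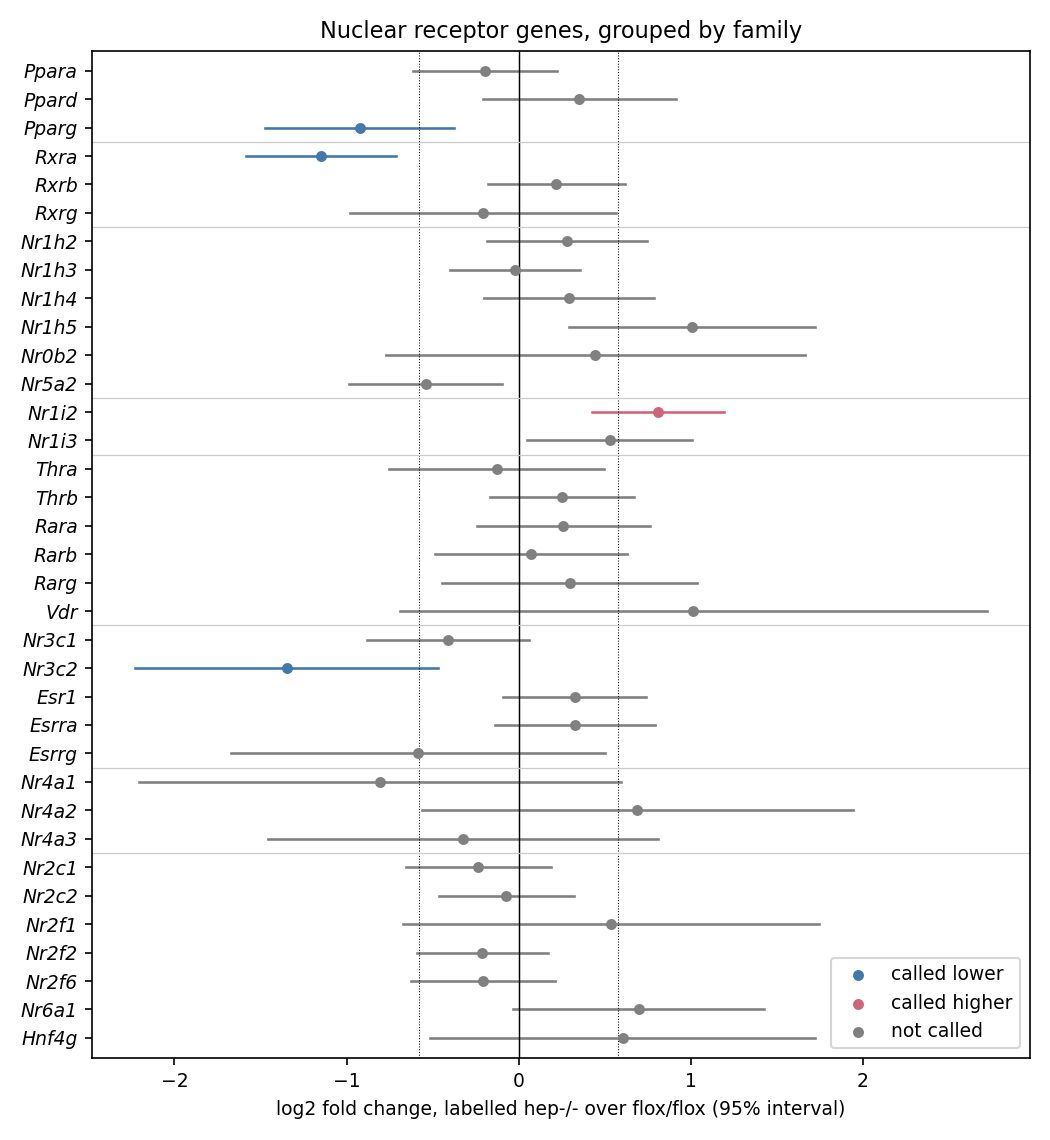
Log2 fold change, labelled hep-/- over flox/flox, of the 35 tested receptor genes with its 95% interval, grouped by family, with dotted lines at the threshold of 0.58 in each direction. The intervals of Rxra, Pparg, Nr3c2 and Nr1i2, which were called, exclude 0. Those of Nr1h5, Nr5a2 and Nr1i3, which were not called, exclude 0 as well. Vdr and the NR4A genes have wide intervals.

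Genes known to be controlled by these receptors, and the coregulators that the receptors recruit, were followed in 11 lists written from general knowledge. Of 134 tested genes in the lists, 26 coregulators included, 23 fell and 13 rose, that is 17.2% and 9.70%, against the 7.83% and 8.0% of all genes given above. With replicate 3 labelled hep-/- left out, 29 list genes fell and 8 rose (21.6% and 5.97%, beside 7.51% and 6.28% of all genes). The lower calls were fewest without flox/flox replicate 2, 10 or 7.46% of the list genes beside 3.16% of all genes. They were 14 without flox/flox replicate 3 (10.4% beside 4.71%), 11 without replicate 1 labelled hep-/- (8.21% beside 5.21%) and 13 without replicate 2 labelled hep-/- (9.70% beside 3.84%). Higher calls were 4 without flox/flox replicate 2 (2.99% beside 2.74%), 6 without flox/flox replicate 4 (4.48% beside 4.98%) and 5 without replicate 2 labelled hep-/- (3.73% beside 3.92%). The lists are not independent of each other or of cell composition, and each is described by its counts and median.

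In the list of PPARα targets, 6 of 23 genes fell and 0 rose, with a median log2 fold change of -0.18. *Cpt1a*, which admits fatty acids to mitochondria, was at 957 to 1107 CPM in flox/flox and 415 to 665 CPM in livers labelled hep-/-, a log2 fold change of -0.87 (edgeR adjusted p = 0.0254). The largest falls were -1.66 for *Ehhadh*, -1.37 for *Hadha*, -1.33 for *Hadhb* and -1.06 for *Plin2*, where *Ehhadh*, *Hadha* and *Hadhb* encode enzymes of β-oxidation and *Plin2* encodes a coat protein of lipid droplets. *Ehhadh* itself was at 1400.2 to 2053 CPM in flox/flox and 336 to 642 CPM in livers labelled hep-/-. The other 17 did not pass. Leaving out replicate 3 labelled hep-/- gave 6 lower and 1 higher.

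Of 12 PPARγ targets linked to steatosis, 2 fell and 1 rose (median -0.16). *Cd36*, a fatty acid transporter that macrophages also carry, was at 359 to 722 CPM in flox/flox and 153 to 223 CPM in livers labelled hep-/- (-1.32, edgeR adjusted p = 0.0112). *Fitm2*, needed for lipid droplet formation, had a log2 fold change of -1.42, whereas *Plin4*, another droplet coat protein, had one of 0.92 (edgeR adjusted p = 0.0245 and 0.0303). Without replicate 3 labelled hep-/-, *Fitm2* had -2.07, and *Plin4* was no longer called (edgeR adjusted p = 0.0649). Of 12 LXR targets, 2 fell and 1 rose (median -0.21). *Abca1*, the cholesterol exporter at the head of that list, was at 86.0 to 112 CPM in flox/flox and 65.7 to 85.5 CPM in livers labelled hep-/- and did not pass (log2 fold change -0.46, edgeR adjusted p = 0.116). It was called lower in 1 of 18 alternatives. *Smpdl3a* and *Abcg8*, which exports sterols into bile, fell (-1.21 and -0.74), and *Mlxipl*, which encodes the glucose-responsive factor ChREBP, rose (1.40, edgeR adjusted p = 0.0287, or 0.0660 without replicate 3 labelled hep-/-).

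Among 9 tested genes that FXR induces, 2 fell and 0 rose (median -0.32). The bile salt export pump *Abcb11* was at 105 to 152 CPM in flox/flox and 136 to 171 CPM in livers labelled hep-/- and did not pass, while *Slc27a5* and *Scarb1* fell (-0.82 and -0.65, edgeR adjusted p = 0.0435 and 0.0436). Of the 3 genes that FXR signalling represses, 2 fell. *Cyp7a1*, the rate-limiting enzyme of bile acid synthesis, was at 100.2, 117, 41.3 and 78.6 CPM in flox/flox and 23.3, 6.18 and 58.4 CPM in livers labelled hep-/-, with overlap and an edgeR adjusted p of 0.0914 at a log2 fold change of -1.53. It was called lower in 5 of 18 alternatives. *Cyp8b1*, which sets the share of cholic acid, and *Slc10a1*, the bile acid importer, fell by 1.73 and 0.97 on the log2 scale. Without replicate 3 labelled hep-/- all 3 of these genes were called lower, *Cyp7a1* at -2.52. *Slc27a5*, *Scarb1* and *Slc10a1* were each no longer called when any other mouse was left out, with edgeR adjusted p of up to 0.116, 0.113 and 0.106.

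The CAR and PXR targets moved in both directions, with 4 lower and 3 higher of 16 tested (median -0.53), or 7 lower and 2 higher (median -0.76) without replicate 3 labelled hep-/-. *Cyp2b10*, the classic CAR target, had no counts in any flox/flox mouse and in 2 of the 3 labelled hep-/-, where the third was at 0.296 CPM, and it was not tested. Its near copies *Cyp2b13* and *Cyp2b9* rose. *Cyp2b13* went from 0.184, 0.602, 1.10 and 0.452 CPM in flox/flox mice to 19.5, 15.4 and 11.2 CPM in those labelled hep-/- (4.70, edgeR adjusted p = 0.000654), and *Cyp2b9* had a log2 fold change of 1.0, which was called in 11 of 18 alternatives and not without replicate 3 labelled hep-/- (edgeR adjusted p = 0.0781). How reads were split among such copies is not given in the sources used here, so these values are uncertain. *Ugt1a1*, which conjugates bilirubin and shares exons with the other Ugt1a genes, was at 151, 222, 243 and 98.4 CPM in flox/flox and 9.64, 10.7 and 35.6 CPM in livers labelled hep-/- (-3.26, edgeR adjusted p = 0.00389). Without replicate 3 labelled hep-/- its log2 fold change was -4.14. *Aldh1a1*, a retinaldehyde dehydrogenase, had a log2 fold change of -1.47.

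The glucocorticoid receptor targets were the list with most higher calls, 6 of 12 and 0 lower (median 0.82), or 3 higher and 1 lower without replicate 3 labelled hep-/-. The metallothioneins *Mt1* and *Mt2*, which bind zinc and also respond to metals, were at 103 to 214 CPM in flox/flox and 515 to 939 CPM in livers labelled hep-/- and at 47.3 to 94.2 CPM in flox/flox and 214 to 460.2 CPM in livers labelled hep-/-, with log2 fold changes of 2.36 and 2.43 (edgeR adjusted p = 0.00257 and 0.00250). *Zbtb16* and *Tsc22d3* gave 1.55 and 1.30, and without replicate 3 labelled hep-/- their edgeR adjusted p was 0.117 and 0.0600. *Fkbp5*, the first gene of that list, was at 51.5 to 163 CPM in flox/flox and 97.2 to 192 CPM in livers labelled hep-/- and did not pass (edgeR adjusted p = 0.199). It was called higher in 2 of 18 alternatives, without flox/flox replicate 3 (edgeR adjusted p = 0.0182) and by voom with sample weights (adjusted p = 0.0425). Of 8 oestrogen-related receptor targets, which serve mitochondrial respiration, 3 fell and 0 rose (median -0.66), and 5 fell without replicate 3 labelled hep-/-. *Etfdh*, *Sdha* and *Atp5b* had log2 fold changes of -1.46, -1.33 and -1.28, and *Idh3a* one of 0.17 that did not pass.

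None of 6 thyroid hormone and 7 retinoic acid receptor targets passed (medians 0.05 and -0.28). The first genes of these lists, *Thrsp* and *Cyp26a1*, gave log2 fold changes of 0.74 and 0.87 with edgeR adjusted p of 0.263 and 0.231, and *Thrsp* turned to -0.20 and *Cyp26a1* moved to 0.15 without replicate 3 labelled hep-/-. Of 26 coregulators, 2 fell and 2 rose (15.4%, beside 15.8% of all genes). *Gps2*, a corepressor subunit, and *Ncoa5* gave 0.92 and 0.87, the acetyltransferase *Kat2b* -0.87 and *Tbl1x* -0.63, while *Ncoa1* was at 13.8 to 18.7 CPM in flox/flox and 13.9 to 19.1 CPM in livers labelled hep-/- (0.05). *Tbl1x* was no longer called in 12 of 18 alternatives, among them the omission of each of the 7 mice, *Gps2* in 8, *Ncoa5* in 6 and *Kat2b* in 5, and without replicate 3 labelled hep-/- 1 coregulator fell and 2 rose. Of the target genes named above, *Plin4* was no longer called in 8, *Zbtb16* in 7, *Mlxipl* and *Tsc22d3* in 5, *Cpt1a* and *Fitm2* in 4, *Plin2* and *Abcg8* in 3 and *Atp5b* in 2 of these alternatives. Among the receptor genes left out of the 36, *Nr1d1*, a repressor of the circadian clock, fell (-1.58, edgeR adjusted p = 0.0261, or 0.0662 without replicate 3 labelled hep-/-). *Hnf4a*, the receptor that maintains hepatocyte identity, was at 393 to 519 CPM in flox/flox and 398 to 611 CPM in livers labelled hep-/- and did not pass.

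**Figure D4:**
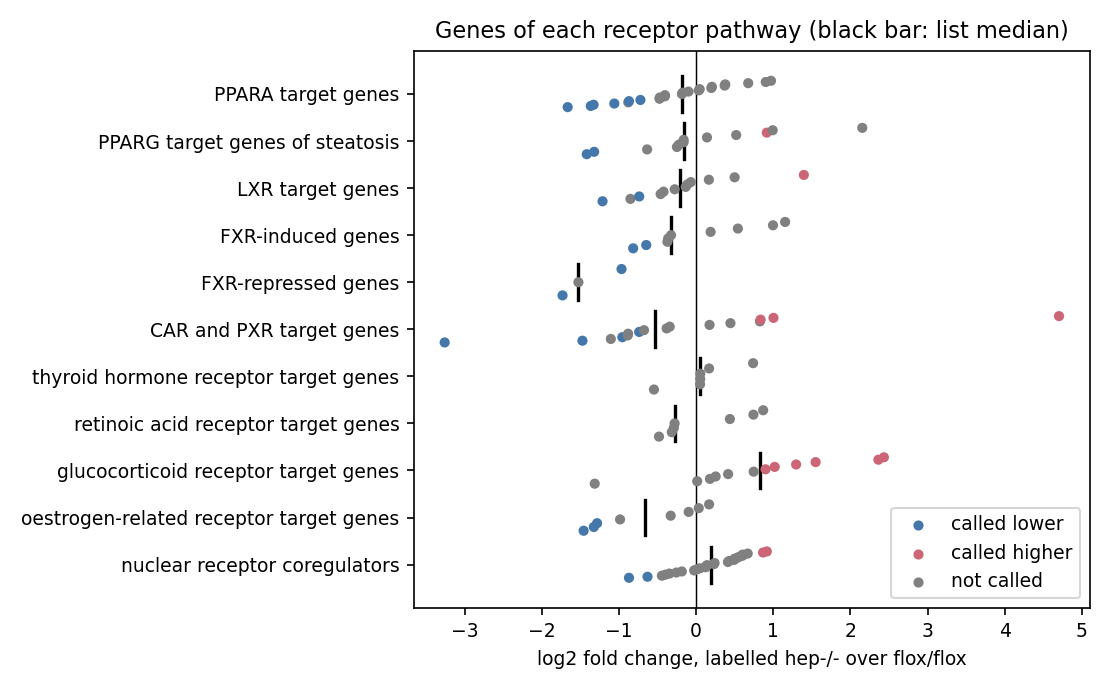
Log2 fold change, labelled hep-/- over flox/flox, of each tested gene in 11 lists of receptor targets and coregulators, with called genes in colour and the list median as a black bar. The medians run from -1.53 for the 3 FXR-repressed genes to 0.82 for glucocorticoid receptor targets.

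**Figure D5:**
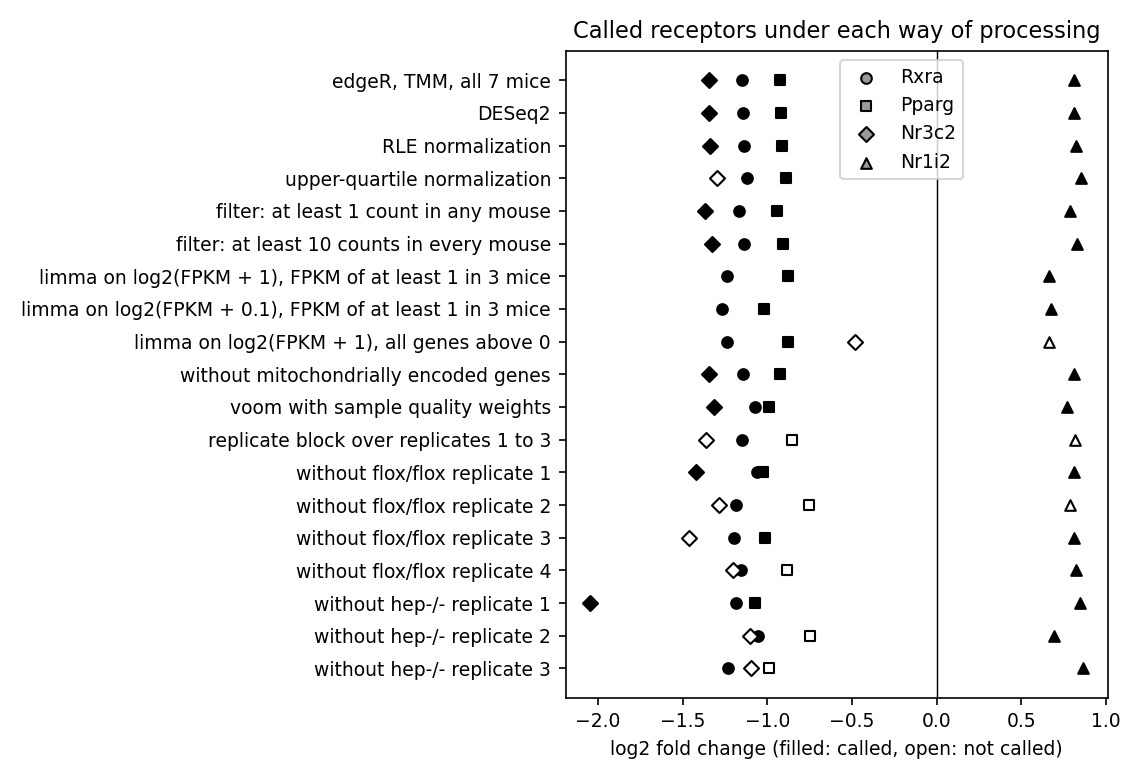
Log2 fold change of the 4 called receptors under the reported processing (top line) and 18 alternatives, filled where called and open where not. Rxra stays filled on every line between -1.27 and -1.06, while Pparg, Nr3c2 and Nr1i2 turn open on 5, 8 and 3 lines.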

How the data were processed

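Liver RNA of 7 mice was measured, 1 library each. Groups and replicate numbers came from the sample labels. The authors extracted RNA with TRIzol and made libraries with a VAHTS Universal V6 kit. Per the submitters' processing notes, fastp, HISAT2, HTSeq, DESeq2 and R 3.2.0 were used on build GRCm39, while other versions, the annotation and the strand setting are not given in the sources used here. The authors deposited counts, whole numbers per gene and mouse without normalization, and FPKM, which matched the deposited count over a fixed gene length and the library total to within 1 percent (13374 genes of 10 or more counts in each mouse). Because FPKM uses the total, the larger mitochondrial share lowers other genes' FPKM.

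Genes were kept by filterByExpr (minimum count 10, minimum total 15), scaled with TMM factors and compared in R 4.3.3 by the quasi-likelihood F-test of edgeR 4.0.16 on group alone, with Benjamini-Hochberg adjustment over 15179 genes. The thresholds of the study, which used DESeq2, were kept (adjusted p below 0.05, log2 fold change beyond 0.58 in either direction). Single values were compared by two-sided exact permutation tests of means. The scripts were tested on simulated data. Alternatives were DESeq2 1.42.0, other size factors and filters, log2 FPKM with pseudocounts of 1 and 0.1 in limma 3.58.1, voom with sample weights, the 13 mitochondrial genes left out, a replicate block, no fold change threshold and each mouse left out. A pseudocount understates changes of genes with low FPKM. No 2 libraries were copies (lowest chi-square per gene 58.5 over 21 pairs).

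Members, lists and tests were chosen with earlier results of these data known. The text names each member, the first gene of each list and up to 4 called genes of each list with the largest change. *Nr1d1* and *Hnf4a* were added outside that rule, with *Adipoq* and *Retn* as markers. Some genes of the lists are not reported here. Depth limits values below 3 counts, and intervals cover these mice only.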

Additional observations from a re-analysis of the deposited data

Results flagged for a closer look

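Each of the 35 tested receptors was checked for a flox/flox mouse that stands apart from the other three by Dixon's test, and 2 did, where chance gives about 1 in 20 groups, or 1.75 of 35. For *Nr1h3* it was flox/flox replicate 2 at 76.1 CPM, below 85.0, 86.5 and 86.5 CPM in replicates 1, 3 and 4. For *Esrrg* it was flox/flox replicate 3 at 2.48 CPM, above 1.03, 0.954 and 1.10 CPM in replicates 1, 2 and 4. Neither gene was called.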

How the results depend on the processing

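*Rxra* was called in all 18 alternatives (log2 fold change -1.27 to -1.06), whereas *Pparg* was lost in 5, *Nr3c2* in 8 of 16 and *Nr1i2* in 3. With limma on log2(FPKM + 1) over all genes, *Nr1i2* had an adjusted p of 0.0627, and *Nr3c2* a log2 fold change of -0.48. Receptors called higher were 2 with DESeq2, with all genes of at least 1 count and with voom (*Nr1h5* added), and 0 with limma over all genes. Pathway list genes called higher were 3 with limma over all genes and 20 with voom. On the FPKM scale the median of all genes shifted by -0.12 to -0.13 (log2) relative to TMM, and 24.5%, 23.6% and 18.2% of calls were higher, against 50.5% as reported. Over all genes, limma called 561 higher with log2(FPKM + 1), 1946 lower and 601 higher with log2(FPKM + 0.1), and 242 higher over all genes above 0.

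Deviations from the group mean had correlations of -0.34, -0.03 and 0.08 between the mice of equal number, for numbers 1 to 3. Mice of unequal number were not compared, so these values cannot decide whether the numbers pair the mice. With the replicate block, over replicates 1 to 3, 1 receptor was called lower and 0 higher (*Rxra* remained), and 590 genes were lower and 635 higher. *Pparg*, *Nr3c2* and *Nr1i2* then had edgeR adjusted p of 0.113, 0.0678 and 0.0875, and *Nr4a1* turned to 0.24. Without one mouse at a time, receptors called lower ranged from 1 to 3 and higher from 0 to 2, pathway list genes lower from 10 to 29 and higher from 4 to 14, and all genes lower from 474 to 1175 and higher from 411 to 1291. The lowest of the all-gene counts came without flox/flox replicate 2, and 1405, 1552 and 1199 genes in both directions were called without flox/flox replicate 3, flox/flox replicate 4 and replicate 2 labelled hep-/-.

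Reversed signs concerned receptors that were not called. *Nr1h3* turned to 0.0142 with upper-quartile factors and 0.0809 with voom, *Rarb* to -0.0317, -0.0482 and -0.0317 with the limma settings, *Rarg* to -0.18 and *Vdr* to -0.0095 with voom. Leaving out single mice gave ranges of -0.11 to 0.0581 for *Nr1h3*, -0.36 to 0.81 for *Nr0b2*, -0.61 to 0.0779 for *Thra*, -0.0858 to 0.19 for *Rarb*, -0.38 to 0.55 for *Rarg*, -1.27 to 0.15 for *Nr4a1*, -0.37 to 1.07 for *Nr4a2* and -0.13 to 0.0265 for *Nr2c2*. *Thrsp*, *Idh3a*, *Ncoa1* and *Hnf4a*, also not called, changed sign in 1, 4, 7 and 4 of 18 alternatives. The causes were not tested.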
